A study of Macaca mulatta with 6 samples.

Results

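Aminoacyl-tRNA synthetases are the enzymes that load each amino acid onto its transfer RNA, and this account covers their genes in 6 single bone marrow colonies of the rhesus macaque. Members were the rows of the count table whose gene symbol follows the synthetase naming pattern, together with EPRS1, the subunits and mitochondrial form of the phenylalanine enzyme, and the scaffold proteins AIMP1 and AIMP2. The rule found 39 of 32386 rows, made up of 20 cytosolic enzyme genes (2 of which, GARS1 and KARS1, also supply mitochondria), 17 genes of mitochondrial enzymes and 2 scaffold genes. All 39 passed the filter on low counts, with 39 to 10288 counts per gene and library.

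Of the 6 colonies, 3 were labelled uniallelic for TET2 (genotype TET2+/-, called UA here, with a mutation predicted to destroy function) and 3 were labelled wild type (WT). All grew for 14 days in semi-solid medium from single CD34+ stem or progenitor cells, taken 15 months after a transplant of the animal's own mobilized CD34+ cells, which had been treated with CRISPR/Cas9. WT colonies came from marrow with the same transplant and editing history, and the edit of a UA colony was read from its DNA. The colonies were described as granulocyte-macrophage colonies (CFU-GM). The sources used here give neither the number, age nor sex of the animals, nor whether UA colonies carried the same edit, so p-values measure spread among these libraries alone, and that spread may be technical.

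Nearly all synthetases recognize a single amino acid. Cytosolic enzymes charge the transfer RNAs used by cytosolic ribosomes, and a separate set, encoded in the nucleus by genes whose names mostly end in 2, is imported to charge those that mitochondria encode. Several cytosolic enzymes are bound together by scaffold proteins in the multi-synthetase complex. The enzymes fall into classes I and II, which have unrelated catalytic folds. In growing cells the transcription factors ATF4 and MYC are known activators of many of the cytosolic genes.

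Total counts ran from 6334264 to 17684447 in UA and from 10574104 to 25485143 in WT libraries. TET2 itself had 225 to 238 CPM (counts scaled to the library total times its TMM factor) in UA and 79.3 to 109 CPM in WT. Genotypes were assigned from DNA, and a small edit on 1 allele need not lower the transcript level, so this does not check the labels. Why TET2 was higher in UA was not tested. UA libraries were closer to each other than WT libraries. A chi-square statistic of the counts averaged 4.26 to 5.23 per gene between pairs of UA libraries. Between pairs of WT libraries it averaged 12.2 to 88.3, where counting noise alone gives about 1. The statistic grows with depth and was scaled by library totals without TMM factors. Its values of 84.1 and 88.3 were for the pairs with WT replicate 1, the deepest library, and 12.2 was for WT replicates 2 and 3. UA libraries therefore differed by more than counting noise. Library preparation may add such spread as well, so the statistic cannot tell whether they are independent replicates. They were kept as 3 because they are labelled as 3 replicates. The main counts of synthetase genes called are also given with the UA libraries summed to 1 sample. Of 16 markers of the granulocyte and macrophage lineage tested, 11 were higher and 3 lower in UA. Their summed level was 32525 to 33520 CPM in UA and 3027 to 3506 CPM in WT, which joins opposite moves. MPO averaged 16743 CPM in UA and 810 CPM in WT, while CD14 averaged 21.7 CPM in UA and 1147 CPM in WT. Markers of other cells also differed. Stroma and endothelium had 11 markers higher and 1 lower in UA, of 12 tested. They summed to 1449 to 1469 CPM in UA and 194 to 239 CPM in WT. The lower one, DCN, averaged 21.6 CPM in UA and 113 CPM in WT. Eosinophils and mast cells had 6 of 7 markers higher and 1 not called. Those summed to 1495 to 1595 CPM in UA and 102 to 111 CPM in WT. Of 12 megakaryocyte markers 7 were higher and 1 lower in UA, and their sum of 889 to 906 CPM in UA and 436 to 481 CPM in WT joins opposite moves. PF4 averaged 204 CPM in UA and 0.609 CPM in WT, while TUBB1 averaged 203 CPM in UA and 440.1 CPM in WT. Of 7 erythroid markers tested 3 were higher and 3 lower, 42.9% each and not far from the shares over all genes. They summed to 646 to 695 CPM in UA and 405 to 415 CPM in WT. Among them TFRC, which dividing cells also express, averaged 569 CPM in UA and 92.4 CPM in WT, and RHAG averaged 12.9 CPM in UA and 214 CPM in WT. Of 9 lymphoid markers tested 6 were higher and 3 lower, at a sum of 346 to 384 CPM in UA and 268 to 318 CPM in WT. There CD79B averaged 134 CPM in UA and 26.1 CPM in WT, and GZMB averaged 4.92 CPM in UA and 118 CPM in WT. Among those markers SPARCL1, IL5RA and CD3E were at 0 in all WT libraries. Their part in the results below was not tested. In such bulk libraries, fewer cells of a type and less RNA per cell cannot be told apart.

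Most synthetase genes had less transcript in UA than in WT colonies. At an edgeR adjusted p under 0.05, 30 of the 39 genes were lower in UA, 2 were higher and 7 were not called. Among all 13768 genes tested, 66.0% were called, 31.4% lower and 34.6% higher. The fold change was negative for 36 of 39 members, and their median log2 fold change of UA over WT was -0.79, against 0.12 over all genes tested. The 3 UA libraries all lay below the 3 WT libraries for 30 members and above them for 2, and the groups overlapped for 7. Over all genes 73.2% did not overlap, with 34.0% below and 39.2% above. A fall by more than 1 on the log2 scale was called for 14 of 39 members, against 21.4% of all genes. With the UA libraries summed, 12 of the 30 kept their call, where 14.9% of 16219 genes were called lower, and 1 of the 2 higher genes kept its call.

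**Figure D1:**
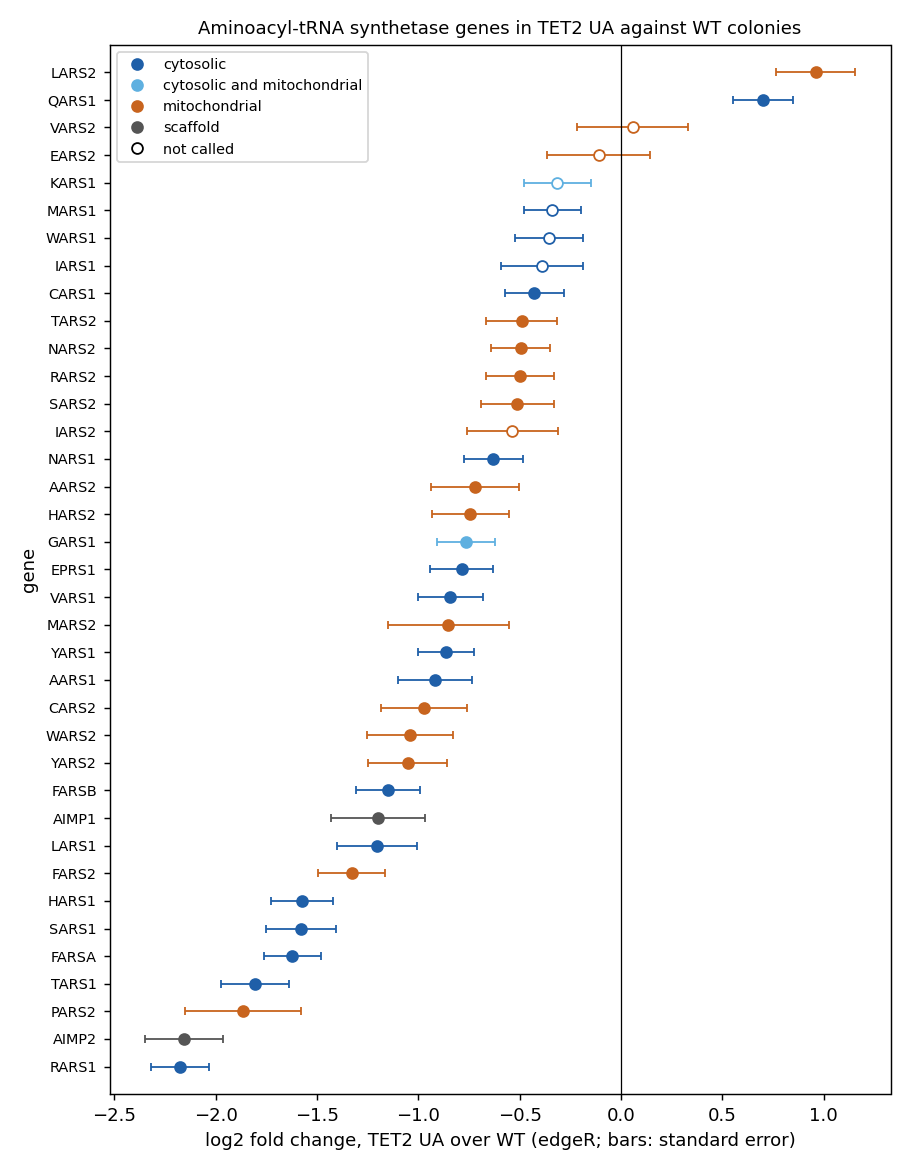
Log2 fold change of UA over WT for 37 of the genes, from edgeR, with bars of 1 standard error; colours give the compartment of the enzyme and open symbols are genes not called at an adjusted p under 0.05. LARS2 and QARS1 are called on the right of 0, VARS2 and EARS2 straddle it, and the other 33 genes lie to the left, down to RARS1 at -2.18.

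Most genes of both the cytosolic and the mitochondrial enzymes were lower in UA. Of the 20 cytosolic enzyme genes, 15 were lower, 1 (QARS1) was higher and 4 were not called, at a median log2 fold change of -0.82. Of the 17 mitochondrial ones, 13 were lower, 1 (LARS2) was higher and 3 were not called, with a median of -0.72. Both scaffold genes were lower. Summed over its 20 genes, the cytosolic level was 3332, 3227 and 3291 CPM in UA replicates 1 to 3, against 5425, 6478 and 5970 CPM in WT replicates 1 to 3. The mitochondrial sum was 638, 620.3 and 650.2 CPM in UA and 876, 996 and 979 CPM in WT. UA libraries lay below WT libraries in both sums, with the ratio of UA to WT means at 0.551 for cytosolic and 0.669 for mitochondrial enzymes. The ratio of the cytosolic to the mitochondrial sum was 5.06 to 5.22 in UA and 6.09 to 6.50 in WT libraries, without overlap. Such ratios are not per gene length, so they are set between groups and do not say which enzymes are more abundant. With the UA libraries summed, most of the calls of lower enzymes were lost in both compartments. The share of mitochondrial enzymes called lower then came near that of all genes. Without UA replicate 1 there were 8 mitochondrial genes called lower, and without UA replicate 2 there were 7.

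**Figure D2:**
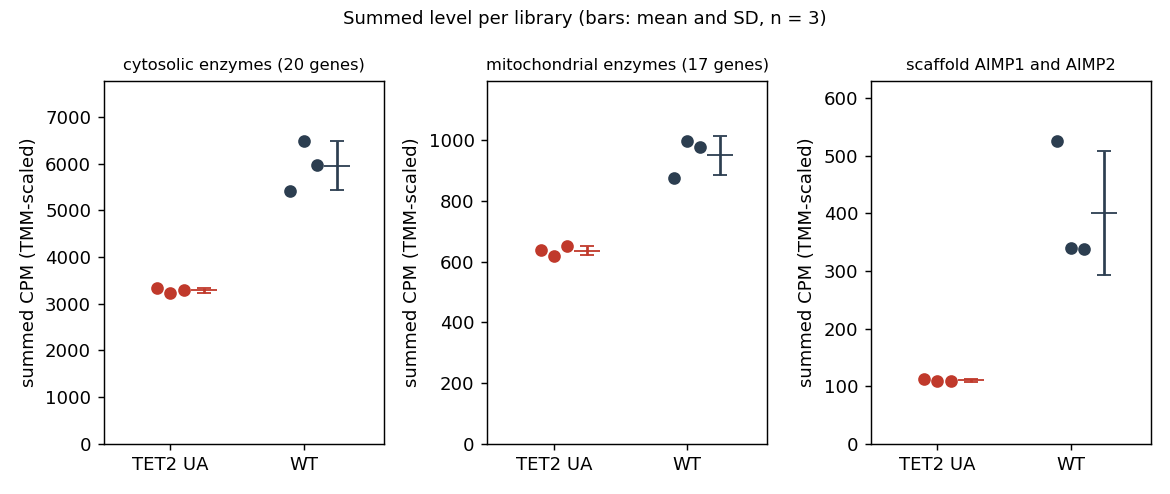
Summed CPM per library of the cytosolic enzymes, the mitochondrial enzymes and AIMP1 with AIMP2, each on its own axis from 0; dots are libraries and bars the mean and SD of 3. UA libraries lie close together and below every WT library in all 3 sums, and WT replicate 1 is the highest for the scaffold genes at 525 CPM.

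Levels varied less among UA than among WT libraries. The median coefficient of variation over the 39 genes was 7.20% in UA and 12.5% in WT, and it was larger in WT for 29 genes. WT replicate 1 stood apart from the other WT libraries, lower for MARS2, VARS2, IARS1 and LARS1 and higher for AIMP1 and AIMP2. Its level over the mean of the other WT libraries was 0.465 for MARS2, 0.487 for VARS2, 0.576 for IARS1 and 0.604 for LARS1, against 1.67 for AIMP1 and 1.51 for AIMP2, with a median over members of 0.906. Without it 35 members were called lower, which added IARS1, IARS2, KARS1, MARS1 and WARS1.

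**Figure D3:**
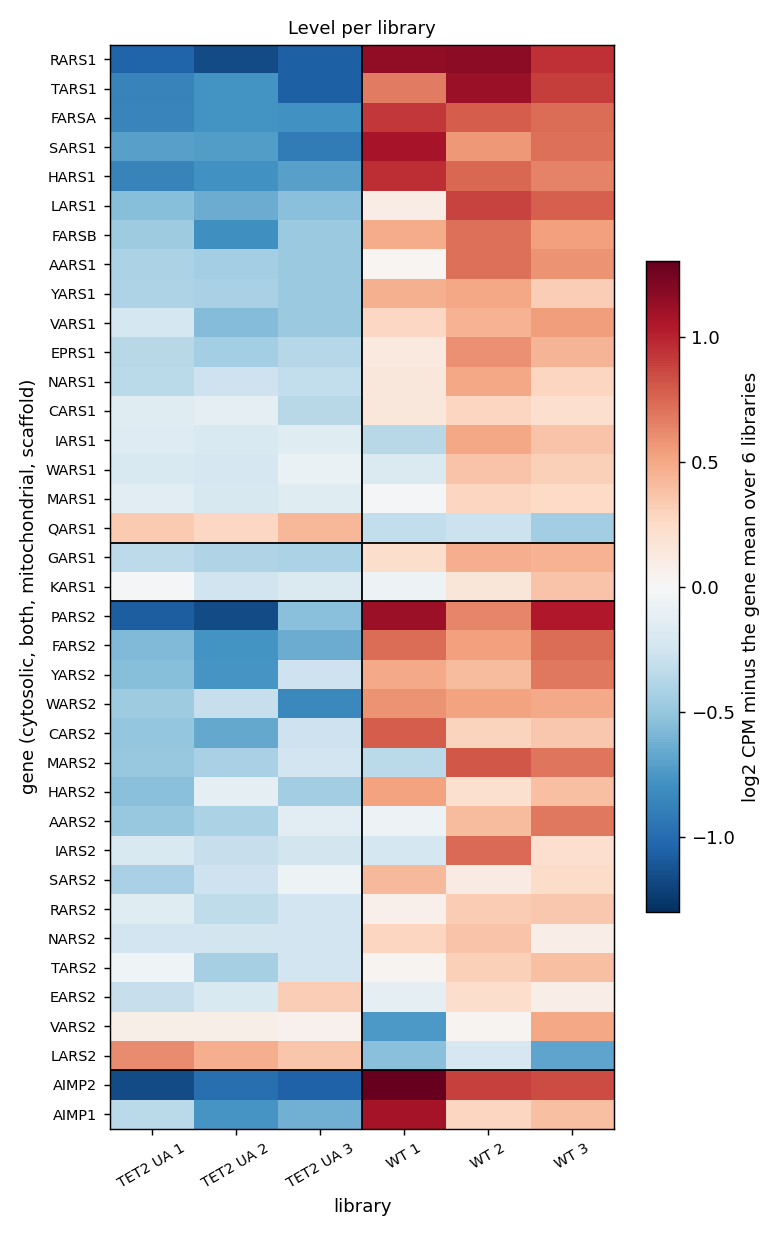
Level of 37 of the genes per library as log2 CPM minus the gene's mean over the 6 libraries, with UA on the left and WT on the right; horizontal lines separate cytosolic, dual, mitochondrial and scaffold genes, sorted by fold change. Most rows run from blue in UA to red in WT, QARS1 and LARS2 run the other way, and WT replicate 1 is pale or blue for IARS1, IARS2, MARS2 and VARS2.

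RARS1, the cytosolic arginine enzyme, fell furthest. It had 103, 94.2 and 101 CPM in UA replicates 1 to 3, against 470.0, 471 and 407 CPM in WT replicates 1 to 3. WT libraries were at about the same level and far above all UA libraries, a 4.52-fold gap on the fitted scale that is -2.18 as log2 of UA over WT (SE 0.14 and adjusted p = 7.62e-07 by edgeR). RARS1 spans 166729891 to 166764454 of chromosome 6 in the authors' deposited table, whose build is not named. The mitochondrial arginine enzyme RARS2 had 47.7 ± 2.84 CPM in UA and 67.6 ± 7.08 CPM in WT (SD, n = 3 each), which did not overlap (log2 fold change -0.50 with SE 0.17, adjusted p = 0.0211 by edgeR).

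The next largest falls among cytosolic enzymes were in TARS1, FARSA, SARS1 and HARS1, all of class II. TARS1, which charges threonine, had 93.2, 98.8 and 81.5 CPM in UA and 271, 370.0 and 316 CPM in WT libraries (log2 fold change -1.81 with SE 0.17, adjusted p = 6.03e-06 by edgeR). SARS1, which charges serine, had 94.8, 93.4 and 82.3 CPM in UA and 326, 229 and 254 CPM in WT libraries (log2 fold change -1.58 with SE 0.17, adjusted p = 1.77e-05 by edgeR). For both genes the lowest WT library was more than double every UA library.

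HARS1, the cytosolic histidine enzyme, had 77.8, 82.2 and 87.1 CPM in UA and 275, 238 and 222 CPM in WT libraries (log2 fold change -1.57 with SE 0.15, adjusted p = 7.53e-06 by edgeR). Its mitochondrial counterpart HARS2 had 29.6, 39.7 and 31.6 CPM in UA and 62.0, 50.01 and 56.8 CPM in WT libraries (log2 fold change -0.74 with SE 0.19, adjusted p = 0.00498 by edgeR). HARS1 and HARS2 are next to each other in the RefSeq annotation of the T2T-MMU8v2.0 assembly, and the library kit did not mark strand. The HARS2 call was not made with the UA libraries summed (adjusted p = 0.149 by edgeR).

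The cytosolic phenylalanine enzyme is built from the catalytic subunit FARSA and the subunit FARSB, and transcripts of both fell. FARSA had 107, 114 and 113 CPM in UA and 368, 336 and 321 CPM in WT libraries (log2 fold change -1.62 with SE 0.14, adjusted p = 3.66e-06 by edgeR). FARSB averaged 92.6 ± 11.6 CPM in UA and 206 ± 18.1 CPM in WT libraries (SD, n = 3 each), without overlap (log2 fold change -1.15 with SE 0.16, adjusted p = 8.43e-05 by edgeR). The mitochondrial enzyme FARS2, which acts as a single chain, had 35.1, 30.4 and 33.4 CPM in UA and 86.3, 75.7 and 86.6 CPM in WT libraries. Its fall, at -1.33 on the log2 scale (SE 0.17 and adjusted p = 4.44e-05 by edgeR), lay between those of FARSA and FARSB.

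Among the other cytosolic enzymes called lower, YARS1, AARS1, VARS1, EPRS1, GARS1, NARS1 and CARS1 had log2 fold changes of -0.87, -0.92, -0.84, -0.79, -0.77, -0.63 and -0.43 (edgeR adjusted p between 0.000243 and 0.0234). They charge tyrosine, alanine, valine, glutamate and proline (both by EPRS1), glycine, asparagine and cysteine. None of these 7 calls was made with the UA libraries summed, where the edgeR adjusted p ran from 0.0769 for AARS1 to 0.422 for CARS1. CARS1 also lost its call without any 1 of the UA replicates (edgeR adjusted p between 0.0611 and 0.121). GARS1, which serves cytosol and mitochondria, had 155, 150.3 and 148 CPM in UA and 230.1, 273 and 269 CPM in WT libraries, with no overlap.

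KARS1, MARS1, WARS1 and IARS1 were not called. KARS1, the lysine enzyme of both compartments, had 106, 90.2 and 94.7 CPM in UA and 103, 120.1 and 139 CPM in WT libraries, which overlapped (log2 fold change -0.32 with SE 0.17, adjusted p = 0.114 by edgeR). MARS1, which charges methionine, had 398, 379 and 390.3 CPM in UA and 428, 528 and 522 CPM in WT libraries, below WT in every library but not called (log2 fold change -0.34 with SE 0.14, adjusted p = 0.0514 by edgeR). MARS1 overlaps ARHGAP9 and DDIT3 in the RefSeq annotation. DDIT3 was near the detection limit, at 0.258 CPM in UA and 0.370 CPM in WT on average. The level of ARHGAP9 was not analysed here, so its part in the MARS1 counts is not known.

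WARS1, the tryptophan enzyme, which interferon gamma is known to induce in human cells, had 255, 251 and 276 CPM in UA and 258, 379 and 364 CPM in WT libraries (log2 fold change -0.36 with SE 0.17, adjusted p = 0.0842 by edgeR). Its row is named WARS in the authors' deposited table and SLC25A47, an adjacent gene, in the table of gene names. IARS1, which charges isoleucine, had 263, 258 and 266 CPM in UA and 231, 420 and 381 CPM in WT libraries (log2 fold change -0.39 with SE 0.20, adjusted p = 0.114 by edgeR). In both genes WT replicate 1 was level with or below the UA libraries, and without it the log2 fold changes were -0.50 and -0.60 (adjusted p = 1.32e-05 and 1.03e-06 by edgeR).

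QARS1, the glutamine enzyme, was the only cytosolic enzyme gene called higher. It had 134, 127 and 143 CPM in UA, against 84.7, 86.9 and 77.4 CPM in WT libraries, so every UA library lay above every WT library. UA exceeded WT by 0.70 on the log2 scale (SE 0.15 and adjusted p = 0.00154 by edgeR), and by 0.71 with the UA libraries summed (adjusted p = 0.112 by edgeR). It spans 93266901 to 93276353 of chromosome 2 in the authors' deposited table. No separate mitochondrial glutamine enzyme is known in mammals, where glutamine transfer RNA of mitochondria is first charged with glutamate by EARS2 and then converted by an amidotransferase made of GATB, GATC and QRSL1. EARS2 had 11.4, 12.2 and 17.4 CPM in UA and 12.8, 16.4 and 14.8 CPM in WT libraries and was not called (log2 fold change -0.11 with SE 0.25, adjusted p = 0.713 by edgeR). The sign of the EARS2 value turned to 0.047 with library size alone and to 0.013 without UA replicate 1.

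LARS1 and LARS2, the enzymes for leucine, went in opposite directions. LARS1 had 151, 142 and 152 CPM in UA, against 238, 408 and 380 CPM in WT libraries (log2 fold change -1.20 with SE 0.20, adjusted p = 0.000312 by edgeR). LARS2, its mitochondrial counterpart, had 54.6, 49.7 and 45.8 CPM in UA, against 24.5, 30.6 and 22.2 CPM in WT libraries. The 3 UA libraries were all above the 3 WT libraries for LARS2, 1.95-fold on the fitted scale, with a log2 fold change of 0.96 (SE 0.19 and adjusted p = 0.0012 by edgeR). With the UA libraries summed the value was 1.02 (adjusted p = 0.0499 by edgeR). The log2 ratio of LARS1 to LARS2 was 1.47, 1.51 and 1.73 in UA and 3.28, 3.74 and 4.09 in WT libraries. LARS2 spans 97018005 to 97179881 of chromosome 2 in the authors' deposited table.

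The other mitochondrial enzymes were lower or not called. PARS2, which charges proline, fell most, with 4.01, 3.75 and 5.76 CPM in UA and 18.1, 13.1 and 17.3 CPM in WT libraries (39 to 74 counts in UA libraries). PARS2 thus fell by 1.87 on the log2 scale (SE 0.29 and adjusted p = 0.000192 by edgeR). YARS2 and WARS2, for tyrosine and tryptophan, had log2 fold changes of -1.05 and -1.04 (SE 0.19 and 0.21, adjusted p = 0.000661 and 0.00117 by edgeR). With the UA libraries summed, PARS2 and YARS2 kept their call, while WARS2 had an edgeR adjusted p of 0.0858.

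CARS2 had a log2 fold change of -0.97, MARS2 of -0.85 and AARS2 of -0.72, while SARS2, RARS2, NARS2 and TARS2 lay between -0.51 and -0.49. Their edgeR adjusted p ran from 0.00198 for CARS2 to 0.0285 for TARS2, and none of the 7 was called with the UA libraries summed (edgeR adjusted p = 0.0824 for CARS2 to 0.392 for TARS2). CARS2 kept its call in every other alternative run, while the other 6 lost it with library size alone and with single libraries left out. MARS2 was not called without any of UA replicates 1 to 3 or WT replicates 2 and 3 (edgeR adjusted p between 0.0515 and 0.0929), nor RARS2 without any UA replicate or WT replicate 3 (0.054 to 0.0959). NARS2 was not called without any of the UA replicates (edgeR adjusted p between 0.0502 and 0.0559). TARS2 lost its call without UA replicates 2 or 3 or WT replicates 2 or 3 (edgeR adjusted p between 0.056 and 0.139). AARS2 lost it without UA replicates 1 or 2 or WT replicate 3 (0.0554 to 0.0632 by edgeR), and SARS2 without UA replicates 1 or 2 (0.136 and 0.0929 by edgeR). MARS2 was called although its groups overlapped, with 13.2, 13.9 and 15.7 CPM in UA and 14.6, 32.6 and 30.2 CPM in WT libraries. IARS2 had 70.8, 65.9 and 68.7 CPM in UA and 69.3, 135 and 94.5 CPM in WT libraries and was not called (log2 fold change -0.54 with SE 0.22, adjusted p = 0.0546 by edgeR). VARS2 had 43.4, 43.5 and 42.8 CPM in UA and 24.5, 42.1 and 58.4 CPM in WT libraries (log2 fold change 0.06 with SE 0.27, adjusted p = 0.861 by edgeR) that was -0.21 without WT replicate 1 and -0.12 with limma-voom. UA libraries agreed closely for VARS2, while WT libraries spread over a 2.39-fold range.

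Cytosolic and mitochondrial enzymes for the same amino acid were compared in 18 pairs, counting EPRS1 with EARS2 and with PARS2, and FARS2 with each subunit of its counterpart. The cytosolic fold change was the lower of the pair in 10 and the higher in 8, with a median difference of -0.16 on the log2 scale. The log2 ratio of cytosolic to mitochondrial level lay below WT in every UA library for 7 pairs, above it for 2 and overlapped for 9. Over all single genes 73.2% did not overlap, and no such share was computed for ratios of other gene pairs. After leucine, the largest falls of this ratio were in arginine, threonine and serine, by 1.68, 1.31 and 1.06 as differences of group means. For RARS1 over RARS2 the log2 ratio was 1.02, 1.07 and 1.09 in UA and 2.98, 2.73 and 2.49 in WT libraries. It was higher in UA for EPRS1 over PARS2 and for WARS1 over WARS2, with differences of 1.08 and 0.73. The differences in these ratios are descriptions and were not tested.

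**Figure D4:**
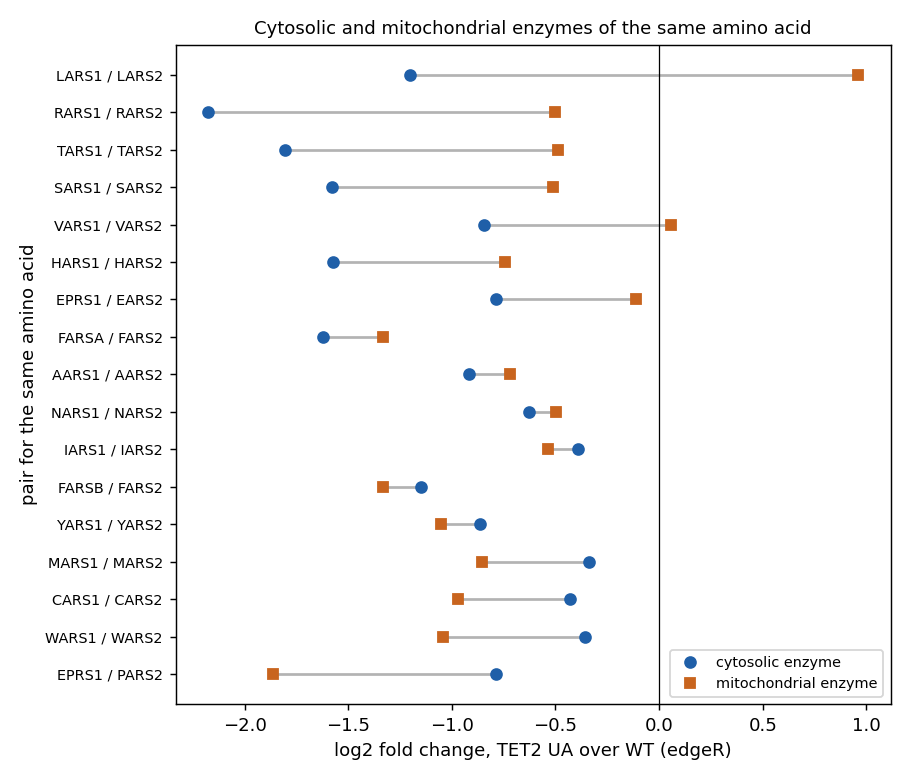
Log2 fold change of UA over WT for the cytosolic enzyme (circle) and the mitochondrial enzyme (square) of 17 pairs for the same amino acid, ordered by the difference. The leucine pair spans 0 with LARS1 at -1.20 and LARS2 at 0.96, and in the lowest pair PARS2 lies at -1.87 and EPRS1 at -0.79.

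Within the multi-synthetase complex all scaffold genes fell, and AIMP2 fell about as far as RARS1. AIMP2, which holds the enzymes of the complex together, had 64.5, 73.0 and 69.7 CPM in UA and 397, 266 and 259 CPM in WT libraries (log2 fold change -2.16 with SE 0.19, adjusted p = 5e-06 by edgeR). It spans 40722795 to 40742112 of chromosome 3 in the authors' deposited table. AIMP1, which is also released from human cells as a cytokine, had 47.4, 35.6 and 39.1 CPM in UA and 128, 73.2 and 79.6 CPM in WT libraries (log2 fold change -1.20 with SE 0.23, adjusted p = 0.000955 by edgeR). EEF1E1, also called AIMP3 and not chosen by the naming rule, had 49.2, 48.5 and 52.4 CPM in UA and 328, 191 and 147 CPM in WT libraries (log2 fold change -2.15 with SE 0.26, adjusted p = 4.11e-05 by edgeR). UA lay below WT in every library for each of these genes, and WT replicate 1 was the highest library in each.

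The 8 enzyme genes of the complex were mixed. Of these 4 were lower, among them RARS1, LARS1 and EPRS1, while QARS1 was higher and IARS1, KARS1 and MARS1 were not called, at a median log2 fold change of -0.57. In mammals RARS1 and QARS1 bind each other and AIMP1 within the complex, and their log2 fold changes were -2.18 and 0.70. Of the 12 cytosolic enzyme genes outside the complex, 11 were lower and 1 (WARS1) was not called, with a median of -0.89. By class, 9 of 10 class II cytosolic genes and 8 of 8 class II mitochondrial genes were lower, against 5 of 9 class I cytosolic and 5 of 9 class I mitochondrial genes, EPRS1 having domains of both classes and being left out. Among all genes tested 31.4% were called lower. The difference between the classes was not tested, and it rests partly on calls that changed with the processing. Of class II, AARS2, NARS2, SARS2 and TARS2 lost their call in 5 to 7 of 15 alternatives, and of class I, CARS1, MARS2 and RARS2 in 6 to 7. Calls were also gained without WT replicate 1. IARS1, IARS2, MARS1 and WARS1 of class I and KARS1 of class II were then called lower. Among these, IARS1, KARS1 and MARS1 are the enzymes of the complex not called above, so both contrasts were smaller without that library.

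**Figure D5:**
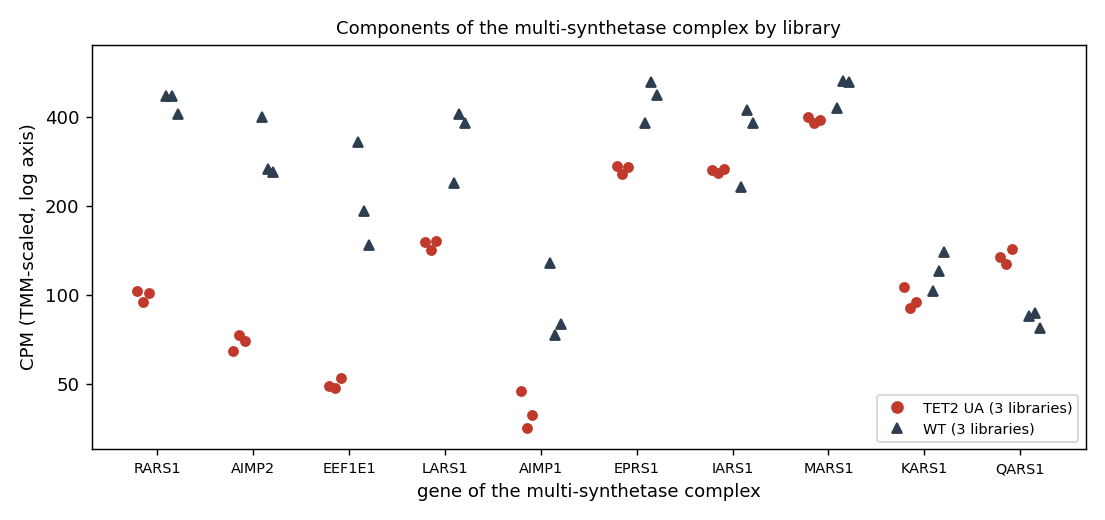
CPM on a log axis for 10 components of the multi-synthetase complex, with UA libraries as circles and WT libraries as triangles, ordered by fold change. RARS1, AIMP2 and EEF1E1 are widely separated at the left, IARS1 and KARS1 overlap, and only QARS1 at the right has its circles, at 127 to 143 CPM, above its triangles, at 77.4 to 86.9 CPM.

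Partner proteins of tRNA charging were mixed. Of 10 genes tested 4 were lower and 1 was higher, at a median log2 fold change of -0.20. Among all genes tested 31.4% were called lower and 34.6% higher. Those shares apply to this and to the related lists that follow, and the 40% lower here was not far from them. Besides EEF1E1, DTD1, a deacylase that removes D-amino acids from transfer RNA, had 40.3, 31.9 and 39.6 CPM in UA and 235, 131 and 151 CPM in WT libraries (log2 fold change -2.21 with SE 0.23, adjusted p = 1.42e-05 by edgeR). GATC, a subunit of the mitochondrial amidotransferase, had a log2 fold change of -0.93 (SE 0.19 and adjusted p = 0.00149 by edgeR). XPOT, which exports transfer RNA from the nucleus, rose, with 193, 215 and 223 CPM in UA and 81.2, 144 and 135 CPM in WT libraries (log2 fold change 0.81 with SE 0.21, adjusted p = 0.00547 by edgeR).

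Genes that modify or process transfer RNA were lower in 23 of 30 tested and higher in 1, at a median log2 fold change of -0.93. RTCB, the tRNA ligase, METTL1, which methylates guanosine, QTRT1, which inserts queuosine, and TRMT6, of an adenosine methyltransferase, had log2 fold changes of -1.77, -2.35, -2.25 and -1.82 (edgeR adjusted p at most 1.43e-05). RNA polymerase III, which transcribes tRNA genes, and its factors were lower in 7 of 19 and higher in 2, with a median of -0.0019. The share called lower, 36.8%, was near the 31.4% of all genes tested. There the polymerase subunit POLR3K had a log2 fold change of -2.49, and the TFIIIC subunits GTF3C1 and GTF3C4 of 1.43 and 1.64 (edgeR adjusted p at most 7.14e-05). Mitochondrial translation factors were lower in 7 of 11 and higher in 2, with a median of -0.90. TSFM and TUFM, mitochondrial elongation factors, had log2 fold changes of -2.90 and -1.22 (adjusted p = 5.84e-06 and 2.04e-05 by edgeR).

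Among genes of ATF4 and the amino acid response, 11 of 20 tested were lower and 5 higher, at a median log2 fold change of -0.78. ASNS, asparagine synthetase, had 40.9, 42.2 and 39.0 CPM in UA and 151, 165 and 160.4 CPM in WT libraries (log2 fold change -1.96 with SE 0.15, adjusted p = 1.84e-06 by edgeR), and SLC7A11, a cystine transporter, had a log2 fold change of -3.13 (SE 0.26). PPP1R15A, a phosphatase subunit of the stress response, and EIF2AK3, the kinase PERK, rose by 2.75 and 2.69 on the log2 scale (adjusted p = 1.82e-07 and 4.01e-06 by edgeR). The list thus held genes moving both ways. ATF4 itself was not analysed here.

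MYC and growth regulators were higher in 4 of 11 and lower in 5. MYC, the transcription factor, had 80.8, 76.9 and 68.8 CPM in UA and 320.2, 345 and 344 CPM in WT libraries (log2 fold change -2.15 with SE 0.15, adjusted p = 8.93e-07 by edgeR), and MXD1, which competes with MYC for MAX, rose by 3.35 (SE 0.21 and adjusted p = 5.21e-07 by edgeR). Of 6 interferon gamma responsive genes tested, 2 were lower (IDO1, which breaks down tryptophan, and PSMB9) and 1 was higher (IRF1), with log2 fold changes of -3.61, -1.81 and 2.86 (edgeR adjusted p at most 0.000141). Markers of dividing cells were lower in 8 of 12 and higher in 1 (MKI67), and their summed level was 2695 to 2830 CPM in UA and 4076 to 4227 CPM in WT libraries. Whether the synthetase genes differed because of any of these was not tested.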

How the data were processed

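RNA of 6 single colonies was made into cDNA with the SMART-Seq V4 kit and into libraries with Nextera XT, per the labels' protocols. The kit marks neither strand nor molecule, so overlapping genes cannot be told apart: in the RefSeq table of the T2T-MMU8v2.0 assembly, used for names and neighbours only, the span of 11 of 39 members overlaps another protein-coding gene. The submitters' processing notes name the build Mmul_8.0.1 and bcl2fastq, with aligner and counter not given in the sources used here. Raw counts per gene were deposited by the authors, whole numbers with no normalization. They also deposited a comparison table with, per the file headers, a mean (signal), log2 fold changes and standard errors, a statistic (score) and p-values, for groups it does not name. Only symbols and positions were used from it. Without named groups the sign of its fold changes has no known direction. It lists 24 members, 21 with a positive and 3 with a negative log2 fold change. Of those 21, all but QARS1 were negative here. Of the 3, LARS2 was positive here, and AARS2 and EARS2 were negative. Signs were thus mostly opposite to those found here, and neither reading of the sign matches every member. Sizes differed too, as for NARS1 with 5.11 there and -0.63 here. RARS1 and QARS1 share a sign there, with log2 fold changes of 3.11 and 2.59, while here they were -2.18 and 0.70. Which samples it compares is not known.

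Symbols came from the count table for 8 members, the authors' deposited table for 16 and a table of gene names for 15, and are printed in current form. No columns of other samples were present. The test was that of edgeR 4.0.16 under R 4.3.3 (quasi-likelihood F-test, robust=TRUE, TMM, filterByExpr with minimum count 10 and total 15) on all 6 libraries with group as the only term. Benjamini-Hochberg adjustment ran over 13768 genes, with calls under 0.05. The standard error is the log2 fold change over the square root of F. TMM factors were 0.860 to 1.07. The biological coefficient of variation was 0.232 in the fit, which does not separate the groups. Estimated within each group it was 0.105 for UA and 0.311 for WT libraries. CPM, means and SDs are TMM-scaled. A gene at 0 counts may reach 0.137 CPM (deepest library) or 0.443 CPM (shallowest), for counting error only. Gene lengths were not used, so ratios between genes are set between groups only.

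A few genes are counted in all totals but not reported by name here. Of related lists up to 4 called genes of smallest p were named, besides MKI67, DDIT3 and the cell type markers, which were chosen after their values were seen. Members and lists were chosen with earlier results of these data known. Alternatives were DESeq2 1.42.0 (size factors and Wald test), upper-quartile factors, library size alone, no filter, at least 5 CPM in 3 libraries, limma-voom (limma 3.58.1), a replicate block, the UA libraries summed, and each library left out.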

Additional observations from a re-analysis of the deposited data

How the results depend on the processing

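Calls depended most on whether the 3 UA libraries count as replicates. With them summed, 12 members were called lower (30 in the fit reported) and 1 higher (2), with 7 cytosolic and 3 mitochondrial enzymes lower, and 3014 genes higher and 2410 lower in all (4770 and 4321). With library size alone, which moved the median of all genes from 0.12 to 0.28, 7 mitochondrial enzymes were called lower (13) at a median of -0.57 (-0.72). Leaving out 1 library each gave 23 to 35 members lower and 2 higher, 14 to 19 cytosolic and 7 to 14 mitochondrial enzymes lower, medians of -0.87 to -0.76 for cytosolic and -0.73 to -0.58 for mitochondrial enzymes, and 4133 to 5371 genes higher and 3764 to 4578 lower. The lowest mitochondrial count came without UA replicate 2 and the mitochondrial median nearest 0, -0.58, without WT replicate 3.

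Of the 39 members, 37 kept the sign of their log2 fold change under all 15 alternatives. EARS2 turned to 0.047 with library size alone and ran from -0.32 (without UA replicate 3) to 0.013 (without UA replicate 1) with 1 library left out. VARS2 turned to -0.12 with limma-voom and ran from -0.21 (without WT replicate 1) to 0.38 (without WT replicate 3). Of the called members, 12 kept their call throughout that were lower, and LARS2 that was higher. The cause of each change was not tested. Shared replicate numbers did not pair the libraries: their deviations correlated at 0.05, 0.08 and 0.00, and with a replicate block 30 members were lower and 2 higher, with 4765 genes higher and 4174 lower. For a repeated symbol, summing rows was not run, since each member's symbol was on 1 row. Depth limits PARS2 most, at 39 to 74 counts in UA libraries.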
